A study of Mus musculus with 4 samples.

Results

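The genes described are 42 subunits and partners of 2 sets of nuclear complexes that act on RNA polymerase II: the Mediator complex with its kinase module, and the other kinase and cyclin complexes that phosphorylate the polymerase. The members were taken from a list of names and not by a cut on their measured values, but earlier results of these data were known. For each name the probe sets annotated with that symbol alone were collected, and where there were several the one with the higher mean signal over all 4 arrays was kept. All 42 were found among 22180 named genes, 37 of them with 1 probe set and 5 with 2 probe sets.

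The arrays were Affymetrix Mouse Gene ST arrays hybridised with total RNA from cultured CT26 cells, which come from a colon carcinoma of the mouse. In 1 group the cells had received Senexin B, an inhibitor of the kinases CDK8 and CDK19, at 5 µM for 24 h, and its control group had received the solvent DMSO for 24 h. In the other pair 1 group is named CT26-shCDK8, for a short hairpin RNA against Cdk8, and its control CT26-pLKO.1 for the empty lentiviral vector. Each group had 1 array, so no spread between replicates exists, no difference could be tested, and every difference below is between 2 arrays on the log2 scale. Whether the shCDK8 line was a clone or a pool of infected cells is not given in the sources used here.

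Mediator carries signals from DNA-bound transcription factors to RNA polymerase II at promoters. Its head, middle and tail modules are held together by the scaffold subunit MED14, and a separable kinase module of CDK8 or its paralogue CDK19, cyclin C, MED12 and MED13 (or their paralogues MED12L and MED13L) binds to this core and regulates it. CDK7 with cyclin H and MAT1, CDK9 with a T-type cyclin, and CDK12 or CDK13 with cyclin K phosphorylate the tail of the largest polymerase subunit during initiation, pause release and elongation. In human colon cancer CDK8 is known as an oncogene that acts with beta-catenin. Senexin B blocks kinase activity, whereas a hairpin lowers the transcript itself.

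Expression values are log2 values from RMA, which makes the arrays' distributions nearly equal. A gene was called expressed if at least 1 of its 4 values reached 5.98, a limit set at percentile 40 of the gene values, and 14272 genes passed. All 42 members were expressed, and 41 of them lay above the limit on every array, with values between 7.32 and 11.3. The exception was Med12l, a paralogue of Med12, at 6.03 with Senexin B, 6.04 with DMSO, 5.92 in shCDK8 and 6.02 in pLKO.1, so nearly at the limit on all arrays. Levels of different probe sets are not comparable, and below only the same gene is compared between arrays.

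The array medians lay between 5.99 and 6.04, and Pearson's r between arrays over 41345 probe sets lay between 0.982 and 0.990. How far arrays lie apart without inhibitor or Cdk8 hairpin was read from pLKO.1 minus DMSO, which had an SD of 0.194 over the expressed genes. The controls differ in vector and solvent and are not replicates. As a check of the cell type, 6 of 12 epithelial markers reached the limit on every array, among them Krt8, Krt18 and Cdx2. Krt18 (6.38 with Senexin B and 6.53 with DMSO) and Cdx2 (6.56 with Senexin B and 6.57 with DMSO) lay not far above it. Epcam, Krt19, Cldn7, Vil1 and Lgals4 stayed under it on all 4. None of 5 measured leukocyte markers reached the limit on any array. Of 6 fibroblast markers 5 reached it on every array. Their summed linear level, which adds probe sets of unlike response, was 8144 with Senexin B and 4512 with DMSO, and 3735 in shCDK8 and 5006 in pLKO.1. With Senexin B 5 of the 6 were above DMSO, 2 of them at least 2-fold. These 2 were Dcn (11.30 with Senexin B and 9.01 with DMSO) and Pdgfra (10.33 with Senexin B and 9.09 with DMSO). Col1a2 differed less (11.01 with Senexin B and 10.80 with DMSO), and Fap was lower (5.43 with Senexin B and 5.89 with DMSO, both under the limit). In shCDK8 5 of the 6 were below pLKO.1, and Pdgfra was above it (9.62 in shCDK8 and 9.23 in pLKO.1). The summed epithelial level was 1211 with Senexin B and 1217 with DMSO, and 914 in shCDK8 and 1020 in pLKO.1. Of 7 expressed epithelial markers only Krt20 was below pLKO.1 in shCDK8 (6.59 in shCDK8 and 8.03 in pLKO.1). The other 6 were above it, and the median difference of the 7 was 0.14. The part of these markers in the results on Mediator genes was not tested.

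Promoter sequences are shown for 3 of the 4 members that were lowest with Senexin B relative to DMSO, Cdk7, Med22 and Med6, since Cdk7 and Med6 also lay on opposite sides of the controls on the Senexin B and shCDK8 arrays. The fourth, Med14, has a window inside a longer annotated gene span and is not printed. Each is the 150 bases before the annotated start, on the gene's own strand, from RefSeq for GRCm38.p6. Capitals mark matches on either strand to 5 short motifs. The GC box core was searched as GGGCGG, which Sp1-type factors bind. The core bound by the ETS family of factors was searched as CCGGAAG on both strands. The pentamer CCAAT is bound by the factor NF-Y in many promoters. The box bound by the TATA-binding protein was searched as TATAAA in the same way. The E-box, bound by basic helix-loop-helix factors such as MYC, was searched as CACGTG and reads the same on both strands.
Cdk7, chr13:100730943-100731092, minus strand: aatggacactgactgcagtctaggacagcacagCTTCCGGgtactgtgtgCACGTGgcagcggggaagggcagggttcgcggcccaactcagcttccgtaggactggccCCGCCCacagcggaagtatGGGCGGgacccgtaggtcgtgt
Med22, chr2:26910643-26910792, minus strand: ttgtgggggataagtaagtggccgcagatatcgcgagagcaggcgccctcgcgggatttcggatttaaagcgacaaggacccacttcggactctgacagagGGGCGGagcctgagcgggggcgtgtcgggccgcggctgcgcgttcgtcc
Med6, chr12:81595009-81595158, minus strand: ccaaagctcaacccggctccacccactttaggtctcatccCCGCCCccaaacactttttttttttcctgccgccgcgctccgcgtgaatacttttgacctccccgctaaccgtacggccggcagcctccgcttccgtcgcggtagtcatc

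All 3 windows hold a GC box core, and none holds the NF-Y pentamer or the TATA box. The matches in these windows do not overlap one another. The Cdk7 window has 4 matches, to the GC box core on both strands, the ETS family core and the E-box, and the windows of Med22 and Med6 have 1 each. The promoter table held 36 of the 42 members, all but Ccnh, Cdk19, Med8, Med23, Med24 and Med30, with 40 windows of this length. A GC box core was in 23 of the 40 windows, from 22 of the 36 genes, against 28.6% of all 32851 windows in the table. The ETS core was found in 9 of the 40, against 5.52% of all windows, and the TATA box in 1, against 7.57%. The G and C content of the printed windows was 64% for Cdk7, 64.7% for Med22 and 60% for Med6. A match describes the letters only.

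Cdk8 is the target of the hairpin and was checked before the other genes. Its value was 10.58 with Senexin B and 10.69 with DMSO, and at 9.07 in shCDK8 and 10.79 in pLKO.1. The shCDK8 array was thus the lowest of the 4 by a wide margin, and the other 3 lay close together. The difference between shCDK8 and pLKO.1 was -1.72, or 3.31-fold lower, which leaves 30.3% of the vector line's level on the linear scale. In RNA from a whole culture, fewer cells with the transcript and less transcript per cell cannot be told apart. Among 14272 expressed genes Cdk8 was the 6th lowest in this comparison. With Senexin B the Cdk8 transcript differed from DMSO by -0.11, about the size of its difference between the controls (0.10). The hairpin line therefore still held Cdk8 transcript above the expression limit, and RMA tends to compress differences, so the remaining share is that of the array signal.

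Cdk19, the paralogue that can take the place of Cdk8 in the kinase module, was at 8.36 with Senexin B and 8.20 with DMSO, and at 8.36 in shCDK8 and 8.17 in pLKO.1. It was above both controls on both of the other arrays, by 0.16 on each, while the controls differed by -0.03. The differences, 0.16 for Senexin B and 0.19 for shCDK8, stood at percentiles 77.9 and 79.9 of the expressed genes, so many genes were further up. Ccnc, which encodes the cyclin C partner of both kinases, differed by -0.09 with Senexin B and by 0.19 in shCDK8.

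Med12, whose product activates the kinase through cyclin C, was at 8.68 with Senexin B and 8.80 with DMSO, and at 8.87 in shCDK8 and 8.88 in pLKO.1. Med13, which joins the kinase module to core Mediator, was at 10.07 with Senexin B and 10.26 with DMSO, and at 10.47 in shCDK8 and 10.55 in pLKO.1. The control arrays were 0.29 apart for Med13, more than in either comparison. Its paralogue Med13l was at 9.94 with Senexin B and 9.86 with DMSO, and at 9.69 in shCDK8 and 9.93 in pLKO.1. The Med13l differences were 0.08 with Senexin B and -0.24 in shCDK8. In the kinase module Cdk8 was therefore the single gene of 7 that was 1.5-fold or more apart in either comparison.

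**Figure D1:**
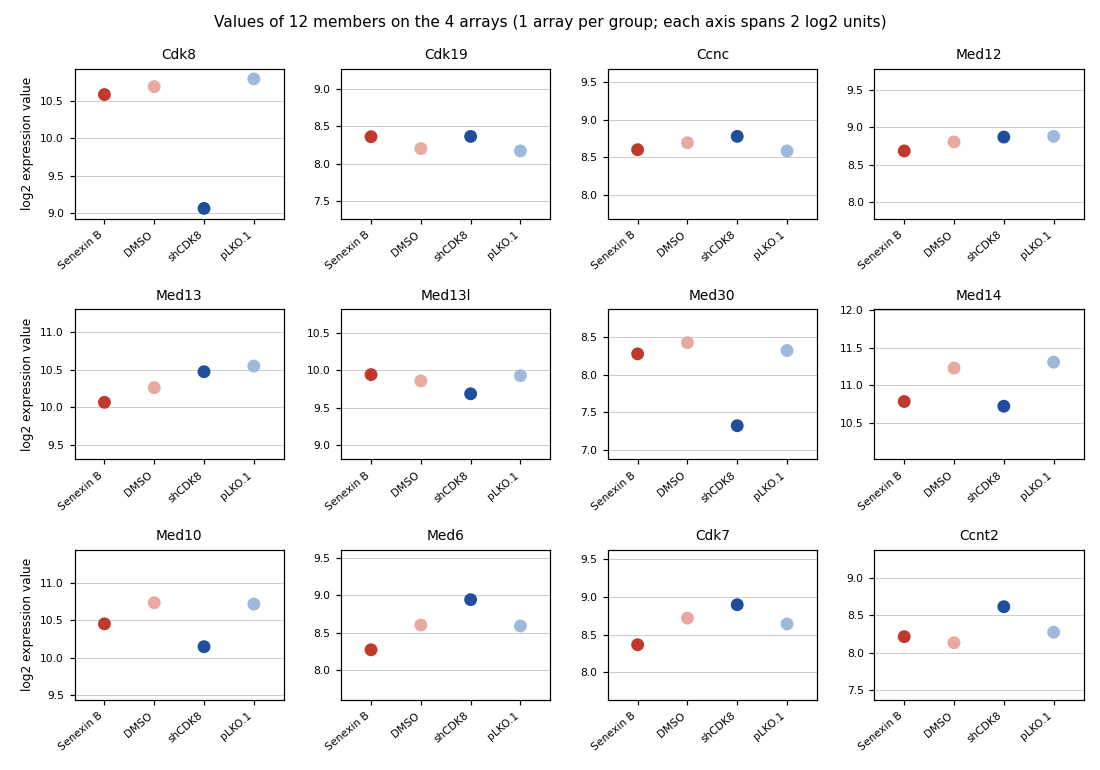
Log2 expression values of 12 members on the 4 arrays, 1 point per array, with an axis of 2 log2 units in every panel. Cdk8 and Med30 are low on the shCDK8 array alone (9.07 and 7.32), Med14 and Med10 are lower on the Senexin B and shCDK8 arrays than on either control, and Med6 and Cdk7 are low with Senexin B and high in shCDK8.

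The core of Mediator has 26 members here, and 2 of them were at least 1.5-fold apart in shCDK8, beside 3.52% of the expressed genes. Med30, a metazoan subunit placed here with the tail, was at 8.28 with Senexin B and 8.43 with DMSO, and at 7.32 in shCDK8 and 8.32 in pLKO.1. It was low on the shCDK8 array alone. The difference of -1.002 from pLKO.1 was 2.00-fold, ranked 46th lowest among the expressed genes, and was -1.11 when the DMSO array was taken as control. With Senexin B the difference was -0.15, against -0.10 between the controls.

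Med14, the scaffold that joins head, middle and tail, was at 10.78 with Senexin B and 11.23 with DMSO, and at 10.72 in shCDK8 and 11.31 in pLKO.1. The controls were 0.08 apart, and both other arrays lay below both controls. The difference was -0.45 with Senexin B, the lowest of all 42 members and at percentile 3.73 of the expressed genes. In shCDK8 it was -0.59, or 1.502-fold, at percentile 1.84. Against the DMSO array the shCDK8 value was -0.51, under 1.5-fold.

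Med10, a middle subunit, had the same pattern. It was at 10.45 with Senexin B and 10.73 with DMSO, and at 10.15 in shCDK8 and 10.71 in pLKO.1. The differences were -0.28 with Senexin B and -0.57 in shCDK8, with the controls 0.02 apart in size. A second Med10 probe set of lower signal gave -0.42 for Senexin B and -0.40 for shCDK8, so both probe sets were lower in both comparisons.

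Across the groups of Mediator subunits the differences stayed small. Of the 8 head subunits, which contact the polymerase, 6 were below DMSO with Senexin B, beside 55.1% of the expressed genes, and the median was -0.10. Between the controls 7 of the 8 were below 0, beside 55.6% of the expressed genes, with a median of -0.07. Against pLKO.1 5 of the 8 were below 0 with Senexin B, beside 50.2%, with a median of -0.05. In shCDK8 3 were below pLKO.1, beside 49.1% of the expressed genes, with a median of 0.07. Med22, a head subunit, was at 8.50 with Senexin B and 8.85 with DMSO, and at 8.67 in shCDK8 and 8.83 in pLKO.1. It was lower than both controls on both of these arrays, by 0.33 with Senexin B and by 0.16 in shCDK8.

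Med6, also a head subunit, went in opposite directions. It was at 8.27 with Senexin B and 8.60 with DMSO, and at 8.94 in shCDK8 and 8.59 in pLKO.1. The controls nearly coincided, and the differences were -0.33 with Senexin B and 0.35 in shCDK8, the highest value of all 42 members in shCDK8. Med11, another head subunit, differed the other way, by 0.15 with Senexin B and by -0.34 in shCDK8. The remaining head subunits Med8, Med17, Med18, Med19 and Med20 differed by between -0.21 and 0.02 with Senexin B and by between -0.04 and 0.20 in shCDK8.

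The 7 middle subunits had medians of -0.09 with Senexin B and 0.04 in shCDK8, and against pLKO.1 the Senexin B median was 0.08. Med1, which encodes a subunit that binds nuclear receptors, was at 10.17 with Senexin B and 10.20 with DMSO, and at 9.90 in shCDK8 and 9.86 in pLKO.1. The arrays with Senexin B and DMSO lay together above the pair of the hairpin and vector lines, and the control difference of -0.34 was larger in size than those of Senexin B (-0.04) and shCDK8 (0.04). Med4, a middle subunit, was 0.34 higher in shCDK8 than in pLKO.1, but the controls differed by -0.38, and against DMSO the shCDK8 value was -0.04. Med21 was higher by 0.17 with Senexin B and by 0.25 in shCDK8, and the controls were 0.15 apart. Med7, Med9 and Med31 lay between -0.21 and 0.09 in both comparisons.

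Of the 9 tail subunits, which receive signals from activators, 8 were below DMSO with Senexin B, with a median of -0.18, beside 55.1% below 0 and a median of -0.03 over all expressed genes. Between the controls 7 of the 9 were below 0, beside 55.6% of the expressed genes, with a median of -0.10. Against the pLKO.1 array 6 of the 9 were below 0 with Senexin B, beside 50.2%, with a median of -0.04. In shCDK8 4 were below pLKO.1, beside 49.1% of the expressed genes, with a median of 0.0013. Besides Med30 the lowest in shCDK8 was Med28 at -0.31, with -0.19 for Senexin B. Med27 and Med29 were lower with Senexin B by 0.28 and 0.29 in size, but the pLKO.1 array was lower than DMSO by 0.28 and 0.25 as well. A second Med27 probe set, at 4.02 with Senexin B and 4.03 with DMSO, was under the expression limit. Med15 and Med23, which are contact points for activators, differed by -0.19 and -0.18 with Senexin B, and by 0.03 and 0.0013 in shCDK8. Med16 and Med25 differed by less than 0.3 in size in both comparisons. Med24 was 0.15 higher with Senexin B, and its second probe set, at 6.23 with Senexin B and 5.59 with DMSO, gave 0.64, with the DMSO value under the expression limit. Med26, a subunit that recruits elongation factors, was at 0.19 with Senexin B and -0.29 in shCDK8, while the controls were 0.20 apart. Its second probe set, of lower signal, gave 0.28 for Senexin B and -0.04 for shCDK8.

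**Figure D2:**
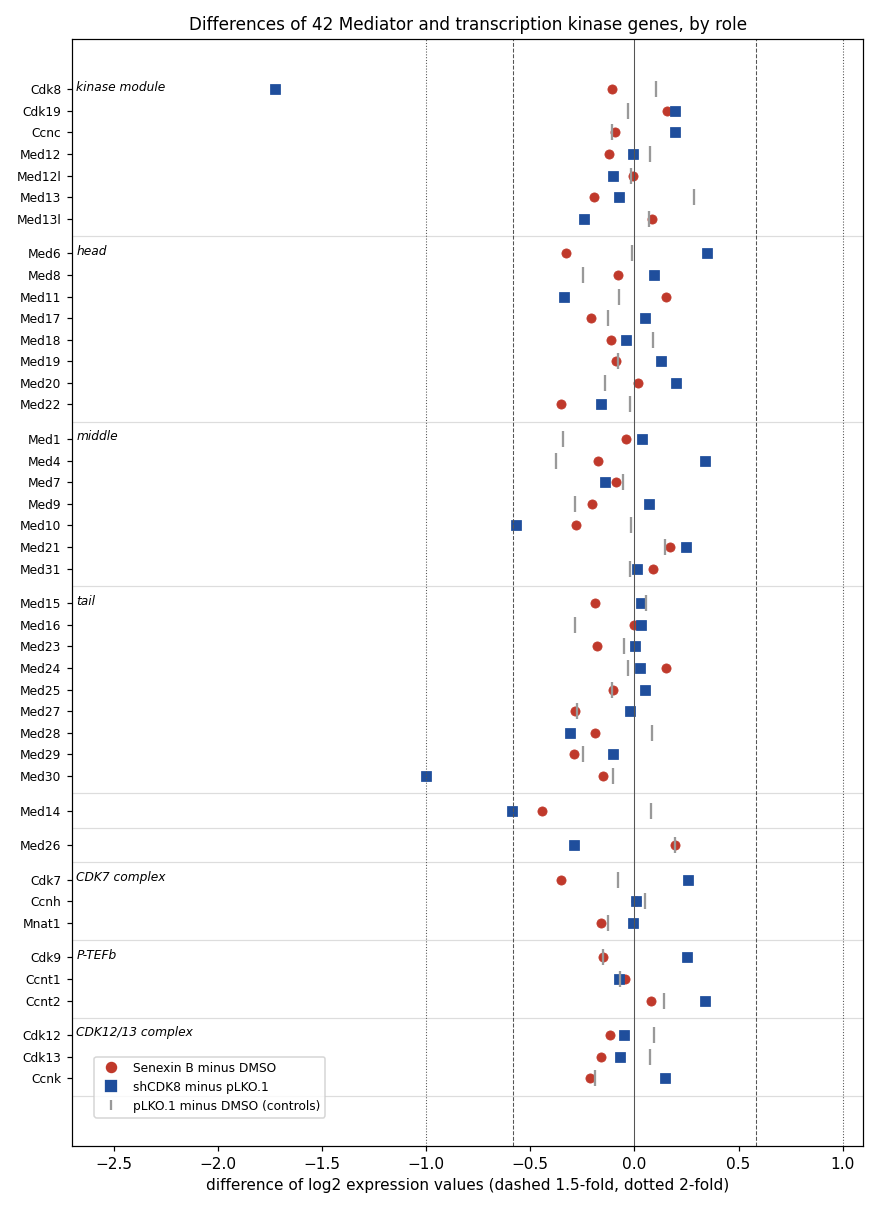
Differences of log2 values of the 42 members, grouped by role, for Senexin B minus DMSO (circles), shCDK8 minus pLKO.1 (squares) and pLKO.1 minus DMSO (bars). Dashed and dotted lines mark 1.5-fold and 2-fold. Only Cdk8 (-1.72), Med30 (-1.002) and Med14 (-0.59) lie at or past the 1.5-fold line, all 3 in shCDK8.

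The kinases and cyclins outside Mediator were 9 genes, and none was 1.5-fold apart in either comparison, beside 4% of the expressed genes with Senexin B and 3.52% in shCDK8. Cdk7, the catalytic subunit of the CDK-activating kinase and of the initiation factor TFIIH, was at 8.36 with Senexin B and 8.72 with DMSO, and at 8.90 in shCDK8 and 8.64 in pLKO.1. It was thus the lowest with Senexin B and the highest in shCDK8. The difference was -0.35 with Senexin B, at percentile 7.01 of the expressed genes, and 0.26 in shCDK8, at percentile 86.5. The differences of its partners were smaller in size. Ccnh, which encodes cyclin H, differed by 0.0054 with Senexin B and by 0.0060 in shCDK8. Mnat1, which encodes the assembly factor MAT1, differed by -0.16 with Senexin B and by -0.0054 in shCDK8.

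P-TEFb is the kinase that releases paused polymerase. Its kinase gene Cdk9 was at 8.30 with Senexin B and 8.45 with DMSO, and at 8.54 in shCDK8 and 8.29 in pLKO.1. The pLKO.1 value was close to the Senexin B value, so the difference of -0.15 with Senexin B was no larger than that between the controls. Ccnt2, 1 of the T-type cyclins, was at 8.22 with Senexin B and 8.13 with DMSO, and at 8.61 in shCDK8 and 8.27 in pLKO.1. The shCDK8 array was the highest, 0.34 above pLKO.1. Ccnt1, the other T-type cyclin, was within 0.08 in size in both comparisons.

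Cdk12, Cdk13 and their cyclin gene Ccnk support elongation through long genes. All 3 were below both controls with Senexin B, as were 40.4% of the expressed genes. The differences from DMSO were -0.12 for Cdk12, -0.16 for Cdk13 and -0.21 for Ccnk. The Senexin B value of Ccnk was only 0.02 below pLKO.1. In shCDK8 all 3 lay between the control arrays, with differences from pLKO.1 of -0.05, -0.07 and 0.14 in the same order.

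Counted over the whole set, 0 of 42 members were at least 2-fold apart with Senexin B, where 0.939% of the expressed genes were, and 0 were at least 1.5-fold apart, where 4% were. The most extreme members were Med14 at -0.45 and Med26 at 0.19. In shCDK8 2 members, Cdk8 and Med30, were at least 2-fold lower, beside 0.322% of the expressed genes, and 3 were at least 1.5-fold lower, beside 1.85%. No member was 1.5-fold higher in shCDK8, where 1.67% of the expressed genes were. Cdk8 is the hairpin's target, so the count apart from it was 1 of 41 at 2-fold and 2 of 41 at 1.5-fold. Between the controls no member was 1.5-fold apart, where 1.04% of the expressed genes were. In all, 31 of 42 members differed by less than 0.3 in size in both comparisons (73.8%), beside 65.8% of the expressed genes.

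The members' median was -0.11 with Senexin B, beside -0.03 for all expressed genes, and 0.0036 in shCDK8, beside 0.0038. With Senexin B 32 of 42 members were below 0 (76.2%), beside 55.1% of the expressed genes. The same count between the controls was 28 of 42 (66.7%), beside 55.6%. Against the pLKO.1 array 25 of 42 were below 0 with Senexin B (59.5%), beside 50.2%, and the median was -0.03. After removal of the trend of the difference on the mean level, 29 of 42 were below 0 with Senexin B (69.0%), beside 50.2%, with a median of -0.06. In shCDK8 20 of 42 members were below 0, beside 49.1% of the expressed genes. The lower position of the members with Senexin B was small and depended on the control array.

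The median size of the members' differences was 0.15 with Senexin B and 0.11 in shCDK8, beside 0.15 with Senexin B and 0.14 in shCDK8 for all expressed genes. Between the controls it was 0.09, beside 0.11. The control difference was larger in size than that of Senexin B for 15 of 42 members (beside 39.5% of the expressed genes) and larger than that of shCDK8 for 21 of 42 (beside 42%).

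**Figure D3:**
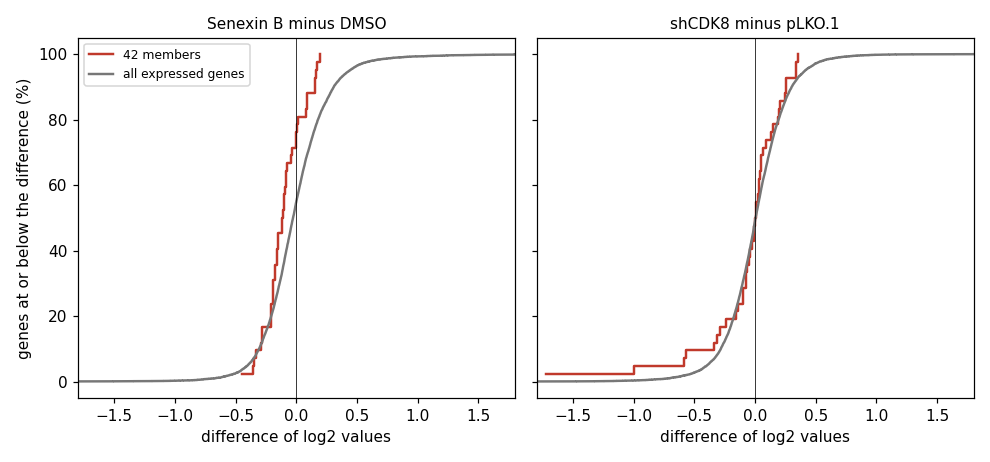
Cumulative share of genes against the difference of log2 values, for the 42 members and for all 14272 expressed genes, with Senexin B minus DMSO left and shCDK8 minus pLKO.1 right. With Senexin B the members' line lies left of that of all genes around the medians (-0.11 and -0.03) but spans a narrower range, with no member past 1.5-fold, and in shCDK8 it follows that of all genes near 0 with a tail to the left made by Cdk8, Med30, Med14 and Med10.

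Set against both control arrays at once, the Senexin B value was below both for 22 members, beside 40.4% of the expressed genes, and above both for 7, beside 35.1%. The shCDK8 value was below both for 15, beside 38.4%, and above both for 11, beside 36.9%. By at least 1.5-fold, Senexin B was outside both controls for 0 members, beside 2.47% of the expressed genes, and shCDK8 was below both for Cdk8 and Med30, beside 1.09% of the expressed genes. Both arrays were below both controls for 10 members (23.8%), beside 18.9% of the expressed genes, a share near the background. These were Cdk8, Med7, Med10, Med14, Med22, Med27, Med28, Med29, Med30 and Mnat1, and with the smaller of its 2 gaps taken for each, Med14 (0.45) and Med10 (0.26) lay furthest below. Both arrays were above both controls for Cdk19, Med20 and Med21, beside 16.3% of the expressed genes. Senexin B was below and shCDK8 above both controls for Med6, Med15, Med19 and Cdk7, beside 13.3%, and the reverse held for Med13l and Med11, beside 11.4%.

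The comparisons with Senexin B and with the hairpin share no array. Over the 42 members Pearson's r between their differences was 0.10 and Spearman's rho 0.06, and without Cdk8 r was 0.14. Over all expressed genes r was 0.0078 and rho 0.05. These correlations are across genes on the same arrays, genes are not independent replicates, and they are given as a description.

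**Figure D4:**
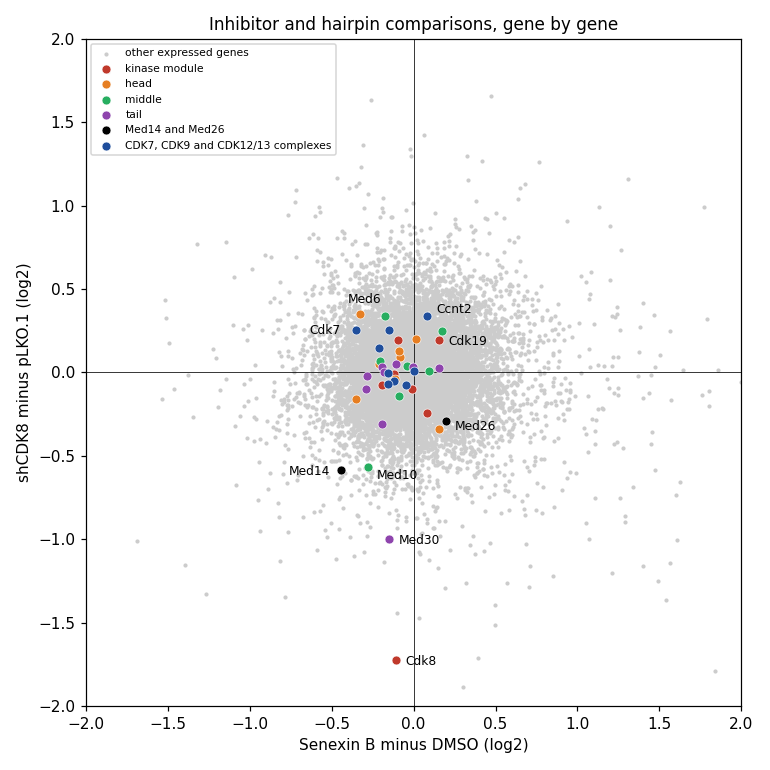
Differences for Senexin B minus DMSO (x axis) and shCDK8 minus pLKO.1 (y axis), both log2, for the expressed genes (grey, 23 lie outside the axes) and the members in colours by role. Cdk8 and Med30 lie far down and near 0 on the x axis (-0.11 and -0.15), Med14 and Med10 lie low on both axes, and Med6 and Cdk7 lie upper left.

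The genes around these complexes were read from lists of transcription factors and kinases. Of 12 RNA polymerase II subunits 11 were expressed, and 1, Polr2l, was at least 2-fold lower in both comparisons. Polr2l encodes a small subunit common to the RNA polymerases and was at 5.52 with Senexin B and 6.92 with DMSO, and at 5.75 in shCDK8 and 6.91 in pLKO.1. Both low values were under the expression limit, so the size is uncertain. The list's medians were -0.14 with Senexin B, beside -0.03 for all expressed genes, and 0.05 in shCDK8. Between the controls the list's median was -0.08, and against pLKO.1 the Senexin B median was -0.0017. Polr2a, the largest subunit and the kinases' substrate, was at -0.30 with Senexin B (-0.43 against pLKO.1) and 0.15 in shCDK8. Polr2g was at -0.28 with Senexin B, Polr2f at -0.42 and Polr2c at -0.20 in shCDK8.

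Of the 7 core TFIIH genes 6 were expressed, and all lay within 0.16 in size in both comparisons. Their medians were -0.09 with Senexin B and -0.02 in shCDK8, and against pLKO.1 the Senexin B median was 0.01. The largest with Senexin B were Gtf2h5 at 0.16 and Ercc2 and Gtf2h1 at -0.12. In shCDK8 they were Ercc3 at -0.15, Ercc2 at 0.14 and Gtf2h4 at -0.11. Of 21 general initiation factor genes 20 were expressed and none was 1.5-fold apart with Senexin B, where Taf3 (-0.28), Taf12 (-0.27) and Taf9 (-0.26) were lowest. The pLKO.1 array was also lower than DMSO for Taf12 (-0.30) and Taf9 (-0.27). Against pLKO.1 the Senexin B differences were -0.26 for Taf3, 0.03 for Taf12 and 0.01 for Taf9. In shCDK8 Gtf2e2, a subunit of TFIIE, was at 9.05 in shCDK8 and 9.73 in pLKO.1, a difference of -0.67, and stood alone past 1.5-fold on the lower side. On the upper side Taf13 was at 0.59, with a pLKO.1 value under the expression limit, and Taf11 at 0.31. For Taf13 the controls differed by -0.29, and against DMSO the shCDK8 value was 0.30 higher, under 1.5-fold.

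Of 26 pausing and elongation factor genes 22 were expressed and none was 1.5-fold apart in either comparison. With Senexin B 17 were below 0, beside 55.1% of the expressed genes, with a median of -0.13. Between the controls 16 of the 22 were below 0, beside 55.6% of the expressed genes. Against pLKO.1 the Senexin B count was 14, beside 50.2%, with a median of -0.07. The lowest were Hexim1 (-0.47), which encodes an inhibitor of P-TEFb, Larp7 (-0.46), which encodes a protein of the same inhibitory particle, and Supt6 (-0.43), an elongation factor gene. With pLKO.1 as control Hexim1 was at -0.31 and Larp7 at -0.35, but Supt6 was at -0.59, past 1.5-fold. In shCDK8 6 were below 0, beside 49.1% of the expressed genes, and 16 above, with a median of 0.06. Larp7 was at 0.30, Leo1 at 0.39 and Hexim2 at 0.33, and Hexim1 was at -0.19. Larp7, like Med6 and Cdk7, was low with Senexin B (9.18 with Senexin B and 9.64 with DMSO) and high in shCDK8 (9.83 in shCDK8 and 9.53 in pLKO.1).

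Of 14 other CDK genes 13 were expressed, with medians of 0.01 with Senexin B and -0.02 in shCDK8. Cdk17 was the single one 1.5-fold apart, at 7.33 with Senexin B and 7.95 with DMSO (-0.62), and 0.01 in shCDK8. Its Senexin B difference from pLKO.1 was -0.79. Cdk1, the mitotic kinase, was at -0.32 with Senexin B, and Cdk3 was higher in both comparisons, by 0.33 with Senexin B and by 0.51 in shCDK8. In shCDK8 Cdk16 was at -0.44 and Cdk18 at 0.39. Of 17 other cyclin genes 14 were expressed and none was 1.5-fold apart. Ccng1, a p53 target, was at -0.36 with Senexin B and 0.48 in shCDK8. Ccnd3 (-0.33) was lower with Senexin B, while Ccng2 (0.47) was higher and Ccny (-0.41) lower in shCDK8. Against pLKO.1 the Senexin B differences were smaller in size, at -0.13 for Ccng1 and -0.11 for Ccnd3. Ccna1, at -0.26 with Senexin B, was 0.43 apart in size between the controls.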

How the data were processed

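RNA was measured in 4 CT26 samples, 1 array each. The authors deposited log2 expression values per probe set, made with RMA and Affymetrix Expression Console per the submitters' processing notes. The sources used here do not give versions, settings or the array's genome build. Of 41345 probe sets 23521 had 1 gene symbol in the platform annotation, 1814 several and 16010 none, and only the first were used. All 42 members matched the RefSeq gene table for GRCm38.p6.

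Groups were taken from the labels. With 1 array per group, differences of log2 values were computed and no test was made. The number of arrays limits the precision. The text names all 42 members and, of each list of related genes, up to 3 expressed genes with the largest difference per comparison. Members and lists were chosen with earlier results of these data known. Epithelial, fibroblast, leukocyte, endothelial, liver and erythroid markers were read. No erythroid marker had a probe set of its own, 3 of 4 endothelial and 2 of 3 liver markers reached the limit on some array, with no value above 7.08. The computation was tested on simulated data. Alternatives were other filters, scalings, probe set rules, thresholds, a floor, the mean and the other control array. Python 3.11.15, pandas 2.3.3, numpy 2.4.6 and statsmodels 0.14.6 were used.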

Additional observations from a re-analysis of the deposited data

Results flagged for a closer look

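A probe set annotated to both Igsf10 and Med12l, and so counted for neither gene, carried a signal outside the values reported above. It was at 7.56 with Senexin B and 5.81 with DMSO, and at 5.81 in shCDK8 and 5.91 in pLKO.1. The Senexin B value lay 1.64 above the nearer control array on the log2 scale and 1.75 above DMSO. The DMSO, shCDK8 and pLKO.1 values were all under the expression limit of 5.98, so the size of these differences is uncertain. The Med12l probe set used here differed by -0.0067 with Senexin B. In the RefSeq table for GRCm38.p6 the ends of the Igsf10 and Med12l genes overlap, and which of them the signal belongs to cannot be told from these values. No probe set annotated to Igsf10 alone was found.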

How the results depend on the processing

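With 1 array per group no paired analysis was possible because no group has a second replicate. The counts of members at least 2-fold apart kept their values under both other filters, both rescalings, the probe set rules and the floor, except that at 3-fold 1 member, Cdk8, stayed past the threshold in shCDK8. With pLKO.1 as control for Senexin B the medians were 0.012 for the kinase module, -0.0097 for the other Mediator subunits and -0.043 for the kinases and cyclins outside Mediator. With DMSO as control for shCDK8 they were 0.065 for the kinase module and -0.13 for the other Mediator subunits, and the single values of 20 members moved by at least 0.1 in each comparison. The mean in place of the median gave -0.25 for the kinase module in shCDK8, where Cdk8 weighs on it. With the mean of all probe sets 2 members moved by at least 0.1 with Senexin B, Med24 to 0.40 and Med27 to -0.15. In shCDK8 3 members did, among them Med7 at 0.06. Repeating the quantile normalization or removing the trend moved no member by 0.1.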
